A study of Mus musculus with 6 samples.

Results

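The PGC-1 coactivators, the estrogen-related receptors (ERRs) and 3 genes that act with them were followed across 3 kinds of mouse adipocyte. The 9 genes were Ppargc1a, Ppargc1b, Pprc1, Perm1, Esrra, Esrrb, Esrrg, Ppara and Nrip1, taken by gene symbol from the array annotation. All 9 were measured, by 26 of the 33565 probe sets that carry 1 gene symbol, and they are 9 of 17720 genes measured in all. Where a gene had several probe sets, the one with the highest mean over the 6 arrays stood for it. Bone marrow-derived adipocytes were sorted out of the gonadal fat of transplanted mice by a donor marker, green fluorescent protein (GFP) on replicate 1 and beta-galactosidase (LacZ) on replicate 2. These cells were set against white adipocytes from gonadal fat and brown adipocytes of intrascapular fat, as the labels spell it, with 2 arrays per group. Each sample pooled at least 6 sorts of about 5000 cells, per the labels' protocols, and the labels used here give no strain, sex, age or genotype beyond the donor marker, and name no promoter that drove it. The samples are called biological replicates with no word on whether separate animals gave them, which means that p-values here reflect array-to-array spread alone, some of it perhaps technical.

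PGC-1 coactivators do not bind DNA themselves. They dock on nuclear receptors and other transcription factors and recruit the machinery that opens chromatin and starts transcription. Their best known partners, the ERRs and PPAR-alpha, switch on genes of mitochondria and of fatty acid oxidation, and in brown fat PGC-1-alpha is induced by cold and by adrenergic signals. RIP140, the product of Nrip1, is a corepressor that binds many of the same receptors and holds oxidative genes down in white fat.

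Of the 9 genes, 5 stood in the same order on every array: Ppargc1a, Ppargc1b, Esrra, Esrrg and Ppara were lowest in bone marrow-derived adipocytes, intermediate in white and highest in brown, with no overlap between groups. This order without overlap was found for 7.95% of all genes. Pprc1 ran the opposite way, highest in bone marrow-derived cells and lowest in brown, an order held by 4.08% of all genes. Nrip1 was highest in white, Perm1 was lowest in white, and Esrrb was near the low end of every array. For Esrra, Esrrg and Ppara, each of the 3 differences passed limma's test, as it did in this order for 0.875% of all genes. Values are log2 expression from Robust Multi-array Average (RMA), and the 25th percentile of an array lay between 3.41 and 3.55, so values of about 3 to 4 are close to background and differences that reach them may understate the true fold.

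**Figure D1:**
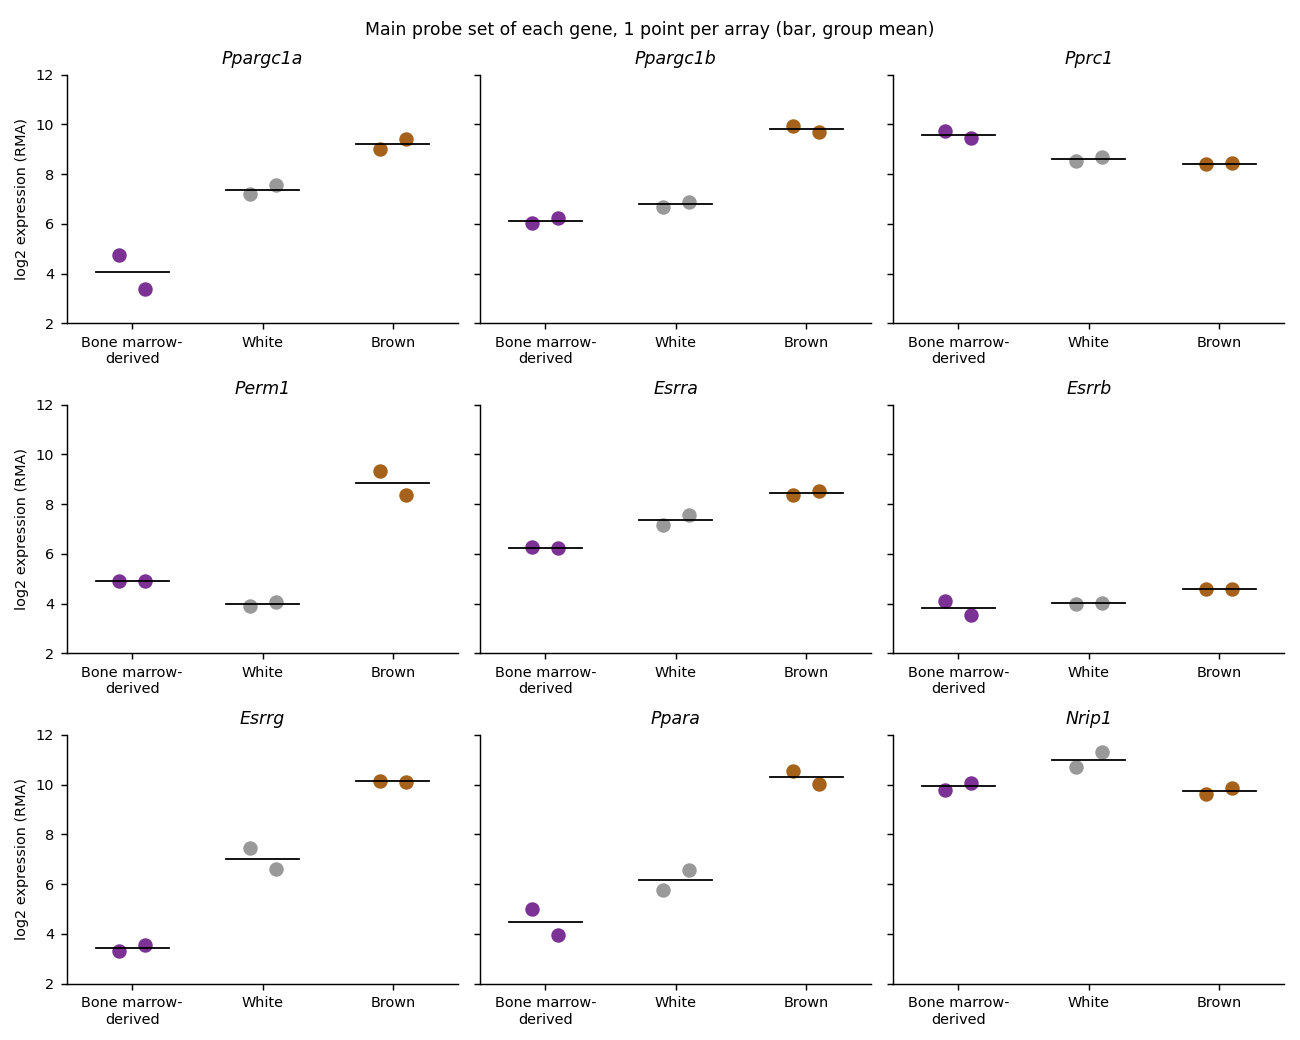
Log2 expression (RMA, y axis) of the main probe set of each of the 9 genes, with 1 point per array and a bar at the mean of each group (x axis: bone marrow-derived, white, brown; 2 arrays each). Ppargc1a, Ppargc1b, Esrra, Esrrg and Ppara climb across the panel without overlap, whereas Pprc1 descends.

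The arrays carried adipocyte RNA in every group, with other cell types beside it. Adipoq (adiponectin) stood between 11.86 and 13.24 and Pparg, the master regulator of adipogenesis, between 11.56 and 12.01 on all 6 arrays. Ucp1, which uncouples respiration to make heat, had values of 7.68 and 4.93 on the bone marrow-derived arrays, 6.43 and 4.84 on white arrays and 13.58 and 13.53 on brown arrays. The sum over 10 endothelial markers, on the log2 scale, was 14.84 and 15.40 in bone marrow-derived, 11.84 and 10.76 in white and 14.54 and 14.21 in brown arrays. The sum over 10 adipocyte markers was 15.40 and 14.82 in bone marrow-derived, 16.10 and 16.23 in white and 15.91 and 15.97 in brown arrays. The sum over 11 macrophage markers was 15.34 (GFP) and 13.14 (LacZ) in bone marrow-derived arrays, against 15.28 and 14.06 in white and 13.26 and 12.48 in brown arrays. Beside these, 8 of 10 brown adipocyte markers were lower in bone marrow-derived than in brown arrays, and 5 of 10 lower in white than in brown. Of 8 fibroblast markers 2 were higher and 1 lower in bone marrow-derived cells than in white, and 4 higher and 1 lower than in brown. Of 4 smooth muscle markers 2 were higher and 0 lower than in white, and of 5 mesothelial markers 0 were called there. In white against brown, 3 of the 8 fibroblast, 1 of the 4 smooth muscle and 2 of the 5 mesothelial markers were higher, with 0 lower. Over all genes, 12.2% were higher and 13.6% lower in bone marrow-derived cells than in white, and 8.71% and 11.7% than in brown. Between white and brown, 3.87% of all genes were higher in white and 5.34% lower. In sorted pools like these, fewer cells of a type and less RNA per cell cannot be told apart.

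Between bone marrow-derived and white adipocytes, 5 of the 9 genes were lower and 1, Pprc1, was higher, with a median log2 difference of -1.06, against -0.07 over all genes. Limma called 25.8% of all genes in this comparison, 13.6% lower and 12.2% higher. The arrays of the 2 groups did not overlap for 8 of the 9 genes, and for 64.3% of all genes. In the same comparison 10 of 10 endothelial markers were higher (median 3.80), and 4 of 10 adipocyte markers lower and 0 higher (median -1.35). The part of these cell types in the differences below was not tested. Against brown adipocytes, 6 of the 9 genes were lower in bone marrow-derived cells and 1 was higher, with a median of -3.67 (0.02 over all genes). The background there was 20.4% called, 11.7% lower and 8.71% higher, and arrays did not overlap for 8 of the 9 genes and 65% of all genes. Of the endothelial markers 1 of 10 was higher and 0 lower in that comparison (median 0.89), and of the adipocyte markers 4 of 10 were lower and 0 higher (median -1.22). Smooth muscle markers were higher there in 3 of 4 (median 3.10) and mesothelial markers in 3 of 5 (median 2.58), with 0 lower in each list, and their part in the differences from brown was not tested. Between white and brown adipocytes 5 were lower and 1 was higher in white, with a median of -1.82 (0.02 over all genes), where 9.21% of all genes were called, 5.34% lower and 3.87% higher. Of 10 endothelial markers 9 were lower and 0 higher in white than in brown. Arrays did not overlap there for 9 of the 9 genes and 62.2% of all genes. Most of these calls rested on both brown arrays: without brown replicate 1 limma called 7 of all genes and 0 members between white and brown, and without brown replicate 2 it called 5 genes and 1 member, Perm1. No member changed sign in white minus brown in those fits. Esrrg was -3.10 and -3.13 there, against -3.11 with all arrays, and Perm1 -4.38 and -5.35, against -4.87. Leaving an array out also takes a value from the estimate of the spread, which all comparisons share. The comparisons share arrays and so are not independent of each other.

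**Figure D2:**
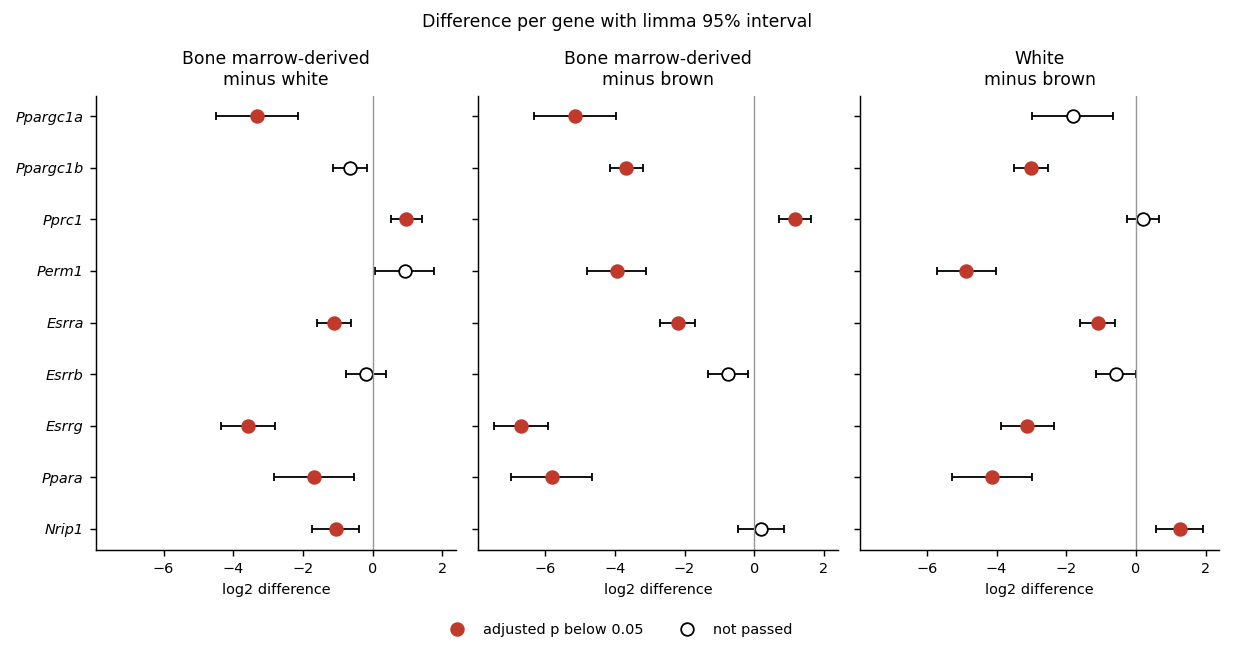
Log2 difference (x axis) of each gene (rows) in 3 comparisons, with limma's 95% interval. Filled points passed at an adjusted p below 0.05, and open points did not. Esrrg, at -6.69, has the lowest value among bone marrow-derived minus brown differences, and Pprc1 is the called gene to the right of 0 in both bone marrow-derived comparisons.

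Ppargc1a (chr5:51454249-52115853, GRCm38.p6, as for all gene positions here) encodes PGC-1-alpha, the inducible coactivator of the family. Its log2 level was 4.73 and 3.40 in bone marrow-derived, 7.18 and 7.57 in white and 9.0 and 9.40 in brown arrays. The bone marrow-derived arrays were lowest, and the GFP array lay 1.33 above the LacZ array. Relative to white adipocytes, Ppargc1a was 9.94-fold lower in bone marrow-derived cells (log2 difference -3.31 ± 0.47, limma's standard error (SE), n = 2 arrays per group, adjusted p = 0.00907). It was 35.2-fold lower than in brown (-5.14 ± 0.47, adjusted p = 0.00415), a call that without brown replicate 2 missed the threshold (-4.94, adjusted p = 0.0532). White against brown did not pass with the main probe set (-1.82 ± 0.47, adjusted p = 0.0757), although the arrays did not overlap. It passed with the mean of all 5 probe sets (-2.34, adjusted p = 0.0151) and without either bone marrow-derived array (-1.82, 0.0184).

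The other 4 probe sets of Ppargc1a had larger white minus brown differences, and each passed in a fit over every probe set (adjusted p from 0.0101 to 0.0321). All 5 probe sets were lower in bone marrow-derived than in white arrays, by log2 differences from -3.67 to -1.58, and lower than in brown arrays, by -6.21 to -4.29. All 10 of these differences passed, in a fit that called 22.2% of all probe sets against white and 17% against brown, and 7.37% between white and brown. On the arrays of the bone marrow-derived cells the other 4 probe sets stood between 2.67 and 3.71, at or near background. There the GFP array lay above the LacZ array by 0.11 to 0.78, less than with the main probe set.

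Ppargc1b encodes PGC-1-beta, the paralog with a role in basal mitochondrial content and fat synthesis. It had 1 probe set, at 6.02 and 6.24 in bone marrow-derived, 6.68 and 6.89 in white and 9.93 and 9.68 in brown arrays. The first 2 groups lay close together and the brown arrays far above both. Bone marrow-derived cells were 12.7-fold lower than brown (-3.67 ± 0.19, adjusted p = 0.00187), and white cells 8.11-fold lower than brown (-3.02 ± 0.19, adjusted p = 0.00497). White against brown was lost without brown replicate 1 (-2.90, adjusted p = 0.0703) or 2 (-3.14, 0.0642). The step between bone marrow-derived and white was small and did not pass (-0.65 ± 0.19, adjusted p = 0.0600). It passed when each array was centred on its median (-0.82, adjusted p = 0.0454).

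Pprc1 (chr19:46056526-46072909) encodes PRC, the third member of the family, a coactivator that responds to serum and works with nuclear respiratory factor 1. Its level was 9.73 and 9.43 in bone marrow-derived, 8.54 and 8.69 in white and 8.38 and 8.44 in brown arrays. The bone marrow-derived arrays stood above all others, opposite to both paralogs. It was 1.95-fold higher there than in white (0.96 ± 0.18, adjusted p = 0.0179) and 2.25-fold higher than in brown (1.17 ± 0.18, adjusted p = 0.0140). White and brown differed by 0.20 ± 0.18 (95% interval -0.25 to 0.66, adjusted p = 0.538). The call against white was lost without either white array (adjusted p = 0.0734 without replicate 1, 0.0689 without replicate 2) or either brown array (0.0520 each), and the call against brown without either brown array (0.0888 and 0.0970). The log2 difference stayed between 0.82 and 1.11 against white, and between 1.02 and 1.31 against brown, in the 6 fits that left out 1 array each.

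Perm1 (chr4:156203262-156221307) encodes a muscle-enriched regulator that PGC-1 and ERRs induce and that in turn raises oxidative genes. Its level was 4.91 and 4.93 in bone marrow-derived, 3.91 and 4.09 in white and 9.35 and 8.38 in brown arrays. Brown arrays stood alone, the white arrays were close to background, and the bone marrow-derived arrays lay above the white ones. It was 15.4-fold lower in bone marrow-derived than in brown cells (-3.95 ± 0.34, adjusted p = 0.00382), and 29.2-fold lower in white than in brown (-4.87 ± 0.34, adjusted p = 0.00549), although the white against brown call was lost without brown replicate 1 (-4.38, 0.0589). Bone marrow-derived minus white was 0.92 ± 0.34 (95% interval 0.07 to 1.76) and did not pass (adjusted p = 0.106), but passed without either brown array (0.0442). The second probe set of Perm1 stood between 3.50 and 4.31 on all arrays and passed in none of the comparisons. With the mean of both probe sets the difference from brown was -1.92 in bone marrow-derived and -2.40 in white cells, each still called (adjusted p = 0.00615 and 0.00797).

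Because Perm1 is a muscle gene, it was set beside 12 skeletal muscle markers. Their summed level was 8.67 and 8.90 in bone marrow-derived, 9.96 and 10.35 in white and 11.00 and 8.54 in brown arrays. Brown replicate 1 had the highest muscle sum of the 6 arrays and brown replicate 2 the lowest, with Perm1 at 9.35 and 8.38. The part of muscle RNA in the Perm1 differences was not tested. Ckm, the muscle creatine kinase, stood at 3.93 and 3.98 in bone marrow-derived, 4.40 and 4.50 in white and 5.31 and 4.41 in brown arrays. None of the 12 muscle markers passed limma's test in bone marrow-derived against brown or in white against brown. In bone marrow-derived against white 1 of the 12 was higher and 2 were lower, beside 12.2% higher and 13.6% lower of all genes.

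The ERRs are orphan nuclear receptors that bind DNA without a known natural hormone and depend on PGC-1 for much of their activity. Esrrg (chr1:187608510-188214885), the receptor ERR-gamma of highly oxidative tissues, had the lowest difference of the 9 genes in both bone marrow-derived comparisons. Its level was 3.33 and 3.55 in bone marrow-derived, 7.43 and 6.59 in white and 10.15 and 10.11 in brown arrays. The bone marrow-derived arrays were at background, and the brown arrays lay together far above. Esrrg was 11.9-fold lower in bone marrow-derived than in white cells (-3.58 ± 0.30, adjusted p = 0.00386) and 103-fold lower than in brown (-6.69 ± 0.30, adjusted p = 0.00185). White was 8.66-fold lower than brown (-3.11 ± 0.30, adjusted p = 0.0101). White against brown was lost without brown replicate 1 (-3.10, adjusted p = 0.114) or 2 (-3.13, 0.0848). Both bone marrow-derived calls held in all 6 fits that left out 1 array. The 2 other probe sets of Esrrg stood between 2.09 and 3.67 on every array, near background, and did not pass in any comparison, so the Esrrg result rests on 1 probe set. With the mean of all 3 probe sets the bone marrow-derived differences were -1.26 from white and -2.69 from brown, and white minus brown was -1.43, each still called (adjusted p = 0.00921, 0.00230 and 0.0146).

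Esrra (chr19:6910977-6922048), the broadly expressed ERR-alpha, showed the same order with smaller steps. Its level was 6.26 and 6.23 in bone marrow-derived, 7.15 and 7.55 in white and 8.37 and 8.53 in brown arrays. In this main probe set the 3 groups were separate and evenly spaced. The level was 2.15-fold lower in bone marrow-derived than in white (-1.11 ± 0.20, adjusted p = 0.0159) and 2.14-fold lower in white than in brown (-1.10 ± 0.20, adjusted p = 0.0327). Bone marrow-derived cells were 4.61-fold lower than brown (-2.20 ± 0.20, adjusted p = 0.00407). Without white replicate 2 the difference from white was -0.91 and missed the threshold (adjusted p = 0.0738), and without brown replicate 2 the difference from brown was -2.13 (0.0519). White against brown missed it without white replicate 1 (-0.90, 0.112) or 2 (-1.30, 0.0555) and without brown replicate 1 (-1.18, 0.177) or 2 (-1.02, 0.173). A second probe set, at 5.06 to 6.29, passed in bone marrow-derived against brown (adjusted p = 0.0306 over all probe sets) but not against white (-0.27, 0.413). Nor did it pass in white against brown (-0.70, adjusted p = 0.109), so its steps were not even. With the mean of both probe sets the bone marrow-derived minus white difference was -0.69 (adjusted p = 0.0277).

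Esrrb (chr12:86361117-86521628), ERR-beta, is best known from pluripotent stem cells and the inner ear. Its main probe set stood at 4.11 and 3.55 in bone marrow-derived, 3.98 and 4.04 in white and 4.58 and 4.59 in brown arrays. The bone marrow-derived and white arrays overlapped, and none of its 3 probe sets passed in any comparison. The 95% interval of bone marrow-derived minus white was -0.75 to 0.39, and of bone marrow-derived minus brown -1.32 to -0.18 (adjusted p = 0.0748). The difference from brown passed when arrays were centred on their medians (-0.94, adjusted p = 0.0367) and without the GFP array (-1.03, adjusted p = 0.0300).

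Ppara (chr15:85734910-85806851) encodes PPAR-alpha, the fatty acid-sensing receptor that drives oxidation in liver and brown fat. Its level was 5.00 and 3.95 in bone marrow-derived, 5.75 and 6.57 in white and 10.54 and 10.05 in brown arrays. Brown arrays stood far above the rest, and the GFP array lay 1.06 above the LacZ array. Ppara was 56.4-fold lower in bone marrow-derived than in brown cells (-5.82 ± 0.46, adjusted p = 0.00350) and 17.5-fold lower in white than in brown (-4.13 ± 0.46, adjusted p = 0.0123). Against white it was 3.22-fold lower (-1.69 ± 0.46), just inside the threshold (adjusted p = 0.0497). That call held in 1 of the 6 fits with an array left out, and was lost without the LacZ array (-1.16, adjusted p = 0.132), without white replicate 1 (-2.10, 0.0603) or 2 (-1.28, 0.198), and without any 1 brown array (-1.69, 0.0998). White against brown was lost without brown replicate 1 (-3.88, 0.120) or 2 (-4.38, 0.0855). All 3 probe sets were called lower in each of the 3 comparisons when every probe set was tested.

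Nrip1 (chr16:76287403-76373827), the corepressor RIP140, did not follow the activators. Its level was 9.80 and 10.09 in bone marrow-derived, 10.69 and 11.31 in white and 9.62 and 9.88 in brown arrays. White arrays stood above both other groups, which overlapped. Nrip1 was 2.08-fold lower in bone marrow-derived than in white cells (-1.06 ± 0.27, adjusted p = 0.0402) and 2.38-fold higher in white than in brown (1.25 ± 0.27, adjusted p = 0.0497). The difference between bone marrow-derived and brown was 0.19 ± 0.27 (95% interval -0.48 to 0.86). All 6 probe sets had the same signs, but 2 of 6 passed in bone marrow-derived against white and 1 of 6 in white against brown. With 1 array left out, the call against white held in 1 of 6 fits, without white replicate 1, and was lost without either bone marrow-derived array (GFP: -0.91, adjusted p = 0.114, LacZ: -1.20, 0.0682), without white replicate 2 (-0.75, 0.148) and without any 1 brown array (-1.06, 0.0864). The white against brown call held in 0 of 6 (adjusted p from 0.0513 to 0.274). With the mean of all 6 probe sets neither call held (-1.03, adjusted p = 0.0767, and 1.35, adjusted p = 0.0665).

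**Figure D3:**
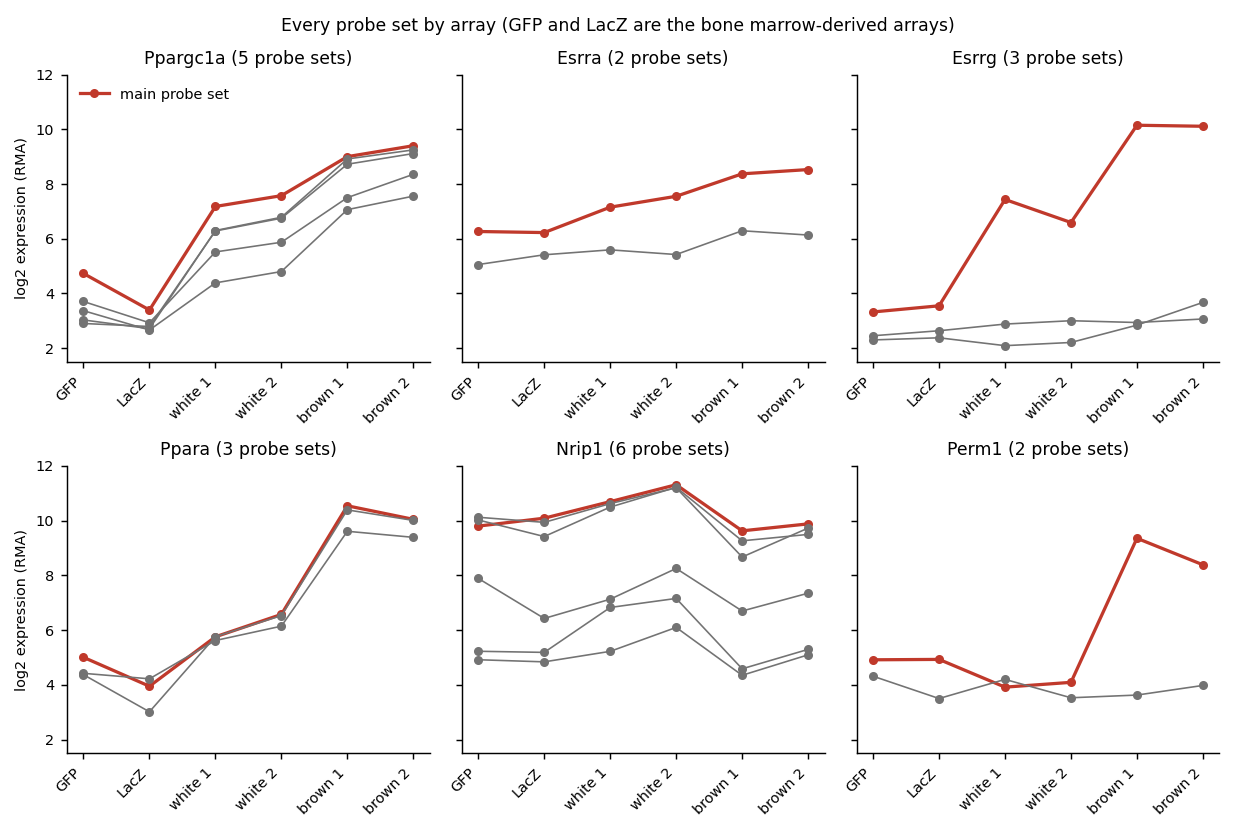
Log2 expression (y axis) of every probe set of 6 genes on the 6 arrays (x axis), with the main probe set in red and lines joining the values of 1 probe set. The probe sets of Ppargc1a and Ppara run side by side, whereas those of Esrrg and Perm1 other than the main one stay low on all arrays.

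Promoter sequences are shown for Ppargc1a, Esrrg and Ppara, which were lower in bone marrow-derived cells than in both other groups. Perm1 is shown as a known target of PGC-1 and ERRs. The window of Esrra, which was also lower in both comparisons, held no motif match and is not printed. Each window runs from 250 bases before to 50 after a start listed in the RefSeq promoter table (assembly GRCm38.p6), 5′ to 3′ on the gene's strand. The starts used for Ppargc1a, Perm1, Esrrg and Ppara all lie inside the gene spans given above, downstream of the outermost gene start. Windows of 8 of the 9 genes were searched, 13 in all. Windows on the chromosome that carries Ppargc1b were left out beforehand, also from the shares of all windows given below. Capitals mark exact matches, on either strand, to the motifs TNAAGGTCA (ERR element), AAGGTCA (its core, contained in it), TGACGTCA (cyclic AMP response element), TGACG (its core, contained in it), CTATTTA followed by TAG (MEF2), CCGGAAGT (GA-binding protein) and GCGC with any 2 bases before a second GCGC (NRF-1). The motif set was settled with these sequences in view. The Ppargc1a window lies on the minus strand at chr5:51567676-51567975, the Perm1 window on the plus strand at chr4:156215677-156215976, the most upstream of 4 Esrrg windows on the plus strand at chr1:187608756-187609055 and the Ppara window on the plus strand at chr15:85735526-85735825.
Ppargc1a: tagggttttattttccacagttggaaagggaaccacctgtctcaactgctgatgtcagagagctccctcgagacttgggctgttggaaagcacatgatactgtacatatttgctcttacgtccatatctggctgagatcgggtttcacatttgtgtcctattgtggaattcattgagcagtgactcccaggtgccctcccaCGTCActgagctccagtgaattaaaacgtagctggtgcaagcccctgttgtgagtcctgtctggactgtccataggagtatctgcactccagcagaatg
Perm1: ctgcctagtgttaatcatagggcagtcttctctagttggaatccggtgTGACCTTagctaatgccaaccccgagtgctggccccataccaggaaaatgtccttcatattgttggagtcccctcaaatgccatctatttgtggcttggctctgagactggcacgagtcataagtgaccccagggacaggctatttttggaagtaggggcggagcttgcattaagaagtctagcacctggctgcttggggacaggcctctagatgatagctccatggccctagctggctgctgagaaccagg
Esrrg: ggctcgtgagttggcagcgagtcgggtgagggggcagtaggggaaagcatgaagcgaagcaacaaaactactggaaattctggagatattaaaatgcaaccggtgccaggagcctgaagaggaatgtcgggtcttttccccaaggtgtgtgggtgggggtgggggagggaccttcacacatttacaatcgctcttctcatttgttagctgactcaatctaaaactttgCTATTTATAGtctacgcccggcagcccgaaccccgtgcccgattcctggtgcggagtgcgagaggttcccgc
Ppara: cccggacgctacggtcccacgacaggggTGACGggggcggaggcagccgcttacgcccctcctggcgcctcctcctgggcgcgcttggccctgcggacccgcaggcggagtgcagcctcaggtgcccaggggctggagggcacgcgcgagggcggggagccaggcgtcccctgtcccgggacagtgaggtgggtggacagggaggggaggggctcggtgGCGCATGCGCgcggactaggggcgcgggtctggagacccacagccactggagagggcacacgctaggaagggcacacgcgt
Ppargc1a held the cyclic AMP core at positions -49 to -45, read on the opposite strand, a motif present in 20.8% of all windows of this length. Perm1 held the core of the ERR element at -202 to -196, read on the opposite strand (4.72% of all windows). Esrrg held the MEF2 motif at -22 to -13 in its most upstream window (0.164% of all windows), and its other windows held no match. Ppara held the cyclic AMP core at -222 to -218 and the NRF-1 motif at -31 to -22 (6.23%). The most upstream of the Esrrb windows held the cyclic AMP core at 2 places. TNAAGGTCA (1.28% of all windows), TGACGTCA (1.79%) and CCGGAAGT (3.89%) had no match in the 13 windows, and neither did any motif in those of Esrra, Nrip1 and Pprc1. These matches describe letters in the window and are not evidence of binding.

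Among 18 measured enzymes and factors that act upstream on PGC-1, 3 were higher and 1 lower in bone marrow-derived than in white cells (median 0.14), 0 higher and 1 lower than in brown (median 0.22), and none passed between white and brown (median -0.17). Of all genes 25.8% were called against white, 20.4% against brown and 9.21% between white and brown, with medians of -0.07, 0.02 and 0.02, so that the first share was near the background. The lower gene in both cases was Prkaa2, the catalytic AMP kinase subunit alpha-2, which phosphorylates PGC-1-alpha. Its level was 5.30 and 4.85 in bone marrow-derived, 8.28 and 8.79 in white and 9.0 and 9.23 in brown arrays. It was 11.0-fold lower than in white (-3.46 ± 0.26, adjusted p = 0.00353) and 16.5-fold lower than in brown (-4.04 ± 0.26, adjusted p = 0.00248). Of the genes called higher than in white, the largest differences were in Mef2c (2.22 ± 0.50, adjusted p = 0.0304) and Creb1 (1.25 ± 0.19, adjusted p = 0.0103), both transcription factors known to act on the Ppargc1a promoter. The factors Atf2 (-0.14), Foxo1 (0.07), Mef2d (0.66) and Irf4 (-0.70 ± 1.18) did not pass. Irf4 stood at 10.35 (GFP) and 6.59 (LacZ) in bone marrow-derived arrays, against 9.57 and 8.77 in white arrays. With the bone marrow-derived arrays on either side of the white ones, its difference from white cannot be read in either direction. Mef2c is also expressed in endothelium. In white against brown Mef2c had the largest difference of the list (-1.19, adjusted p = 0.216).

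Of 12 nuclear receptors that partner PGC-1, 3 were lower and 0 higher in bone marrow-derived cells than in white (median -0.29), a share near the 25.8% called of all genes. Rxrg, a retinoid X receptor that pairs with PPARs, stood at 4.44 and 3.74 in bone marrow-derived, 7.32 and 7.81 in white and 8.02 and 8.17 in brown arrays. It was 11.1-fold lower than in white (-3.48 ± 0.30, adjusted p = 0.00391) and 16.0-fold lower than in brown (-4.00 ± 0.30, adjusted p = 0.00321). Rxra (-1.25 ± 0.22) and the liver X receptor Nr1h3 (-1.09 ± 0.19) were lower than in white, and Rxrb lower than in brown (-1.14 ± 0.26), where 2 of 12 were lower and 0 higher (median -0.35, with 20.4% of all genes called). None passed in white against brown (median 0.13), with Rxra at 0.84 (adjusted p = 0.083).

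Of 15 general coactivators and corepressors 5 were higher and 1 lower in bone marrow-derived than in white cells (median 0.59), where 12.2% of all genes were higher and 13.6% lower. Against brown 2 were higher and 1 lower (median 0.35), near the 8.71% of all genes that were higher and the 11.7% that were lower. The corepressors Ctbp2 (1.08 ± 0.18, adjusted p = 0.0132), Sin3a (0.97 ± 0.18, 0.0173) and Ctbp1 (0.80 ± 0.18, 0.0275) were higher than in white. So were the coactivators Ep300 (0.87 ± 0.19, adjusted p = 0.0267) and Crebbp (0.64 ± 0.15, 0.0359). Ctbp2 (0.86 ± 0.18) and the pocket protein Rbl1 (1.26 ± 0.27, adjusted p = 0.0303) were higher than in brown. Lpin1, a phosphatidate phosphatase that also coactivates with PGC-1-alpha, was lower than in white (-1.56 ± 0.41, adjusted p = 0.0444) and lower than in brown (-2.00 ± 0.41, adjusted p = 0.0278). None of the 15 passed in white against brown (median -0.21), where Ncoa3 had the largest difference (-0.70, adjusted p = 0.219).

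Of the 12 nuclear respiratory factors and genes that copy or transcribe mitochondrial DNA, 1 was higher and 2 lower in bone marrow-derived than in white cells (median 0.02), a share near the 25.8% called of all genes, and 1 higher and 5 lower than in brown (median -0.47), where 8.71% of all genes were higher and 11.7% lower. The mitochondrial transcription factor Tfb1m (-1.49 ± 0.18, adjusted p = 0.00668) and its paralog Tfb2m (-0.80 ± 0.17, adjusted p = 0.0264) were lower than in white. Against brown Tfb2m (-1.82 ± 0.17), Tfb1m (-1.71 ± 0.18) and the mitochondrial helicase Twnk (-1.12 ± 0.23) were lower. Gabpb1, a subunit of the GA-binding protein that drives respiratory genes, was higher than in white (1.77 ± 0.26, adjusted p = 0.00959). White against brown had 2 lower and 0 higher (median -0.62, with 5.34% of all genes lower), Gabpa (-1.14 ± 0.21) and Tfb2m (-1.02 ± 0.17).

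Of 16 known targets of ERRs and PGC-1, 9 were lower in bone marrow-derived than in white cells (median -0.82), 14 lower than in brown (median -1.91) and 6 lower in white than in brown (median -1.04), with 0 higher in each comparison. Over all genes 13.6%, 11.7% and 5.34% were lower in the same order of comparisons, with medians of -0.07, 0.02 and 0.02. Ucp3, an uncoupling protein homolog, stood at 6.13 and 3.65 in bone marrow-derived, 7.89 and 8.47 in white and 9.74 and 9.68 in brown arrays, with the GFP array above the LacZ array. It was 9.80-fold lower than in white (-3.29 ± 0.79, adjusted p = 0.0352) and 28.3-fold lower than in brown (-4.82 ± 0.79, adjusted p = 0.0166). Vegfa, the vascular growth factor, was 7.96-fold lower than in white (-2.99 ± 0.36, adjusted p = 0.00662) and 9.18-fold lower than in brown (-3.20 ± 0.36, adjusted p = 0.00656). Sirt3, the mitochondrial deacetylase, stood at 8.24 and 8.24 in bone marrow-derived, 9.55 and 9.97 in white and 11.42 and 11.30 in brown arrays. It was 8.72-fold lower in bone marrow-derived than in brown (-3.12 ± 0.20) and 3.04-fold lower in white than in brown (-1.61 ± 0.20, adjusted p = 0.0148), and Sirt5 (-1.50 ± 0.29) and Ldhb (-1.30 ± 0.27) were also lower in white than in brown. Idh3a, of the tricarboxylic acid cycle, was 3.65-fold lower in bone marrow-derived than in white (-1.87 ± 0.17, adjusted p = 0.00410).

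Of 19 known targets of PPAR-alpha, 9 were lower and 0 higher in bone marrow-derived cells than in white (median -1.20), and 13 lower and 1 higher than in brown (median -1.95), beside 13.6% of all genes lower against white and 11.7% against brown. In white against brown 3 were lower and 1 was higher (median -0.52), beside 5.34% lower and 3.87% higher of all genes. Acadm and Pdk4 are counted in both target lists. Vnn1, which makes pantothenate from pantetheine, was 20.9-fold lower than in white (-4.38 ± 0.96, adjusted p = 0.0277), at 6.27 (GFP) and 3.21 (LacZ) in bone marrow-derived arrays, against 9.36 and 8.89 in white. The peroxisomal thiolase Acaa1b (-3.98 ± 0.51) and the lipid droplet protein Plin5 (-3.03 ± 0.81, adjusted p = 0.0475) were lower too.

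Against brown, the largest differences of this list were in Fabp3, a fatty acid-binding protein (-7.15 ± 0.97, adjusted p = 0.0101), Plin5 (-6.65 ± 0.81, adjusted p = 0.00793) and Vnn1 (-3.77 ± 0.96, adjusted p = 0.0489). Fabp3 stood at 7.57 and 5.53 in bone marrow-derived, 8.41 and 6.02 in white and 13.74 and 13.66 in brown arrays. It was also lower in white than in brown (-6.48 ± 0.97, adjusted p = 0.0210), as was Hadha of the trifunctional protein (-2.07 ± 0.19). Cpt1a, the carnitine palmitoyltransferase of liver, went the other way. It was 2.33-fold higher in bone marrow-derived than in brown (1.22 ± 0.23, adjusted p = 0.0227) and 2.30-fold higher in white than in brown (1.20 ± 0.23, adjusted p = 0.0374).

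**Figure D4:**
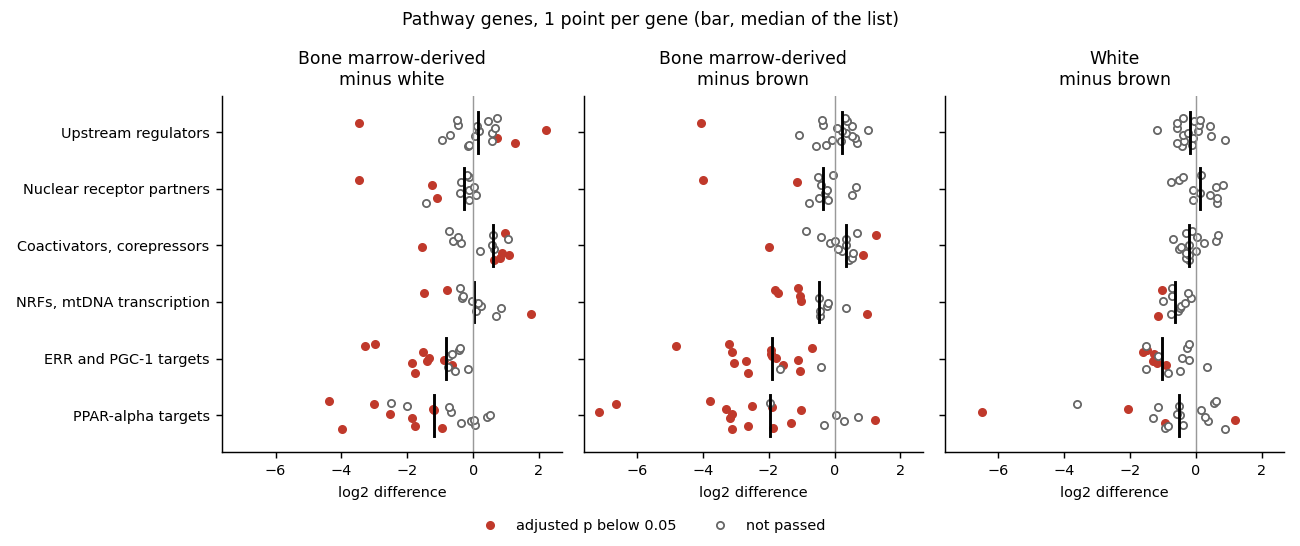
Log2 difference (x axis) of the genes of 6 pathway lists (rows) in 3 comparisons, with 1 point per gene, filled where the adjusted p was below 0.05, and a bar at the median of each list. The 2 target lists sit left of 0 in bone marrow-derived minus brown, with medians of -1.91 and -1.95, while the upstream and coactivator lists straddle 0.

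Over the 6 arrays, some genes had nearly the pattern of a member, measured by Pearson's r of the log2 values. These correlations are descriptions over 6 arrays that fall in 3 groups, so that many genes score high: 63 named genes had an r above 0.99 with Ppargc1a. The closest to Ppargc1a were Ndufab1 (0.9994), Echs1 (0.9991), Hspe1 (0.9986), Aspa (0.9982) and Mtch2 (0.9981). The closest to Esrra were Txn2 (0.9986), Rmdn3 (0.9986) and Smim26 (0.9985), and to Esrrg Hlf (0.9989), Ngrn (0.9953) and Tinag (0.9951). Ppara ran closest to Mrpl15 (0.9992), Tarsl2 (0.9991) and Atp5l (0.9990), and Ppargc1b to Mto1 (0.9992), Myo5c (0.9977) and Nudt12 (0.9967). For Perm1 the nearest were Dmac2 (0.9951), Mapre3 (0.9937) and Qrsl1 (0.9913), for Pprc1 Rabl2 (0.9994), Rfwd3 (0.9944) and Snx22 (0.9923), and for Nrip1 Fstl3 (0.9976), Itga7 (0.9960) and Ube2j1 (0.9959). Among the members themselves, r with Ppargc1a was 0.97 for Esrra, 0.96 for Esrrg, 0.91 for Ppara, 0.87 for Esrrb, 0.84 for Ppargc1b, 0.62 for Perm1, 0.02 for Nrip1 and -0.91 for Pprc1.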

How the data were processed

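The study's deposited table holds log2 expression for each probe set and array. The submitters' processing notes name RMA and Partek, without versions and without saying what each did. That the scale is log2 is read from the range of values, 1.67 to 14.0, since the table does not state it. RMA gives no detection calls, and the number of arrays limits the precision. Of 43057 probe sets 33565 had 1 gene symbol, 857 had several and 8635 were unnamed here, and 33376 matched the RefSeq gene table (GRCm38.p6) by gene ID. Members, gene lists, motifs and naming rules were chosen with earlier results of these data known. Named genes are the 9 members, up to 3 called genes of each list by size (or the largest difference, as a value) and the 3 to 5 genes nearest in pattern. Outside this rule, Atf2, Foxo1, Mef2d, Irf4, Ctbp1, Ep300, Crebbp and some single markers are also named.

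Group means of all 6 arrays were fitted with limma 3.58.1 in R 4.3.3, with 3 residual and 2.35 prior degrees of freedom, two-sided tests and Benjamini-Hochberg adjustment over 17720 genes at a threshold of 0.05. Errors given with ± are limma's standard errors. No filter on low values was used. Of 173 list entries 11 were not analysed here. Alternatives were the mean of a gene's probe sets, median centring, a level filter, a fit on 4 arrays, a replicate block and each array left out.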

Additional observations from a re-analysis of the deposited data

How the results depend on the processing

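The direction of 2 member differences reversed, neither of them past the threshold with all arrays: Esrrb in bone marrow-derived minus white without the LacZ array (0.10, range -0.46 to 0.10 over the fits with 1 array left out) and Nrip1 in bone marrow-derived minus brown after median centring (-0.0034). The replicate block, the level filter, the fit on 4 arrays and leaving out an array of the third group cannot move a difference and bear on its p-value alone. Calls depended on the arrays. With 1 array left out, between 2 and 5 members were called in bone marrow-derived against white, where the full set called 6, between 4 and 8 against brown (7), and between 0 and 6 in white against brown (6). Over all genes the same fits called 1749 to 4281 (full set 4579), 300 to 3121 (3611) and 5 to 2251 (1632). The lowest counts came without white replicate 2 in bone marrow-derived against white (1749 genes and 2 members, Ppargc1a and Esrrg), without brown replicate 2 against brown (300 and 4; 476 and 6 without brown replicate 1) and without either brown array in white against brown (5 and 7 genes, 1 and 0 members). Using the 4 arrays of the comparison called 2727 genes and 4 members in bone marrow-derived against white, the same as without either brown array. White against brown called 837 and 732 genes, and 4 members each, without white replicate 1 and 2. A filter to genes at or above a mean of 7.42 kept 3 members, Ppargc1b, Pprc1 and Nrip1, and called 3, 2 and 2 of them in the 3 comparisons, fewer by construction. Median centring moved the median of all genes by -0.17 in bone marrow-derived minus white and by -0.19 in bone marrow-derived minus brown, and the share of calls that were higher was 36.6% and 28.5% after it, against 47.4% and 42.7% before. The labels do not say that replicate numbers pair samples, and deviations of replicate 1 correlated at 0.21 (bone marrow-derived and white), -0.0038 (bone marrow-derived and brown) and 0.28 (white and brown). With the replicate number as a block, 4028, 3066 and 1264 genes and 5, 7 and 6 members were called, and 1 member call was lost, Ppara in bone marrow-derived minus white (adjusted p = 0.0767). With the mean of a gene's probe sets 5, 7 and 6 members and 4539, 3550 and 1666 genes were called.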
